A study of Homo sapiens with 4 samples.

Results

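The 10 genes described here, GFAP, S100B, NES, SOX2, SOX9, OLIG2, PROM1, FABP7, ALDH1L1 and POU3F2, are markers of the glial lineage and of neural and glioma stem cells. They were chosen by name from the 58735 genes of the expression tables, and all 10 were found there. RNA was sequenced from U251 and U87, established human glioblastoma (GBM) cell lines that were grown as cultures in DMEM with fetal bovine serum. In each line, cells exposed to brusatol (Bru), a plant quassinoid, for 48 h at its IC50 were compared with Control cells that received no Bru. There were 4 libraries, namely U251 Control, U251 Bru, U87 Control and U87 Bru, so each condition was 1 library and no difference below has a replicate check. Each line stands for a single tumor of origin, and Bru was dissolved in DMSO.

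Radial glia and neural progenitors of the developing brain carry the filament protein nestin (NES), the transcription factors SOX2, SOX9 and POU3F2, and the lipid carrier FABP7. As cells mature into astrocytes they gain the filament protein GFAP, the calcium-binding protein S100B and the folate enzyme ALDH1L1, whereas OLIG2 marks oligodendrocyte precursors and many gliomas. Glioblastoma cells with stem-like behavior are often described by SOX2, OLIG2, POU3F2 and the surface protein PROM1 (CD133), and culture in serum is known to lower several of these markers.

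Levels are given as FPKM, fragments per kilobase of exon and scaled to a library size set by the authors. They are set per length so that genes can be compared, but this length joins all annotated exons. For GFAP and ALDH1L1, for example, the level depended on whether this length or that of the longest coding transcript was used. The deposited FPKM could be turned back into whole fragments, called reads here, with 17083896 to 21453561 reads on genes per library. Intervals are 95% intervals for counting error only and compare the libraries, not the conditions. They are exact, except that those for differences of log2 ratios between the lines use a normal approximation. A gene was called detected in a library above 3 reads, the limit that a count of 0 allows, and 67.8% to 68.7% of protein-coding genes were detected in each library. Markers of other cell types were low but not all absent. The summed FPKM ranged from 0.353 to 1.04 over 6 immune markers, from 0.177 to 0.588 over 4 endothelial markers and from 0.0377 to 0.346 over 4 epithelial markers. Between 1 and 3 of the immune, 2 of the endothelial and at most 1 of the epithelial markers were above 3 reads in a library. Among immune markers, CD14 reached 23 reads in U251 Bru, CD68 20 in U87 Control and ITGAM 37 in U87 Bru, against 8 in U87 Control, while AIF1 and CD3E had 0 reads throughout. Among endothelial markers, PECAM1 reached 70 reads in U87 Control, CDH5 39 in U251 Control and VWF 17 in U251 Bru. Of the epithelial markers, EPCAM reached 15 reads in U87 Control, KRT5 had at most 3, KRT14 at most 1 and CDH1 0. Their part in the results below was not tested. In bulk RNA, fewer cells of a type and less RNA per cell cannot be told apart.

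SOX2, NES, SOX9 and POU3F2 were among the more abundant transcripts of U251, and of these SOX9 alone stood above 2 FPKM in U87. In untreated U251, SOX2, NES, SOX9 and POU3F2 stood above 98.8%, 98.7%, 97.4% and 95.4% of protein-coding genes in FPKM, and FABP7 above 73.5%. The stretches before the start of SOX2, NES and POU3F2 are shown because these genes were high in U251 and far lower in U87. Each is the 250 bases before the RefSeq start in GRCh38.p14, written 5′ to 3′ on the strand of the gene: chr3:181711675-181711924, plus strand, for SOX2, chr1:156677408-156677657, minus strand, for NES and chr6:98834324-98834573, plus strand, for POU3F2. Capitals mark CCAAT, the box read by NF-Y, and ACAAAG, a form of the hexamer read by SOX proteins, on either strand.
SOX2: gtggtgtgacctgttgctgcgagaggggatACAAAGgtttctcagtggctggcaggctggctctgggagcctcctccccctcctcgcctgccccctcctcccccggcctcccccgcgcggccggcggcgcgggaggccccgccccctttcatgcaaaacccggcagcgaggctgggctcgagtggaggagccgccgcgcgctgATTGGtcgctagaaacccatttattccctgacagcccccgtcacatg
NES: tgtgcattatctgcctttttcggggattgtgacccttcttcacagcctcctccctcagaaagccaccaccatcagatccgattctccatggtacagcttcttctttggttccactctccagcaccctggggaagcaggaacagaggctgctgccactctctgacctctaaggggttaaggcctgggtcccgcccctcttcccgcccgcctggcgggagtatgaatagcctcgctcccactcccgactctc
POU3F2: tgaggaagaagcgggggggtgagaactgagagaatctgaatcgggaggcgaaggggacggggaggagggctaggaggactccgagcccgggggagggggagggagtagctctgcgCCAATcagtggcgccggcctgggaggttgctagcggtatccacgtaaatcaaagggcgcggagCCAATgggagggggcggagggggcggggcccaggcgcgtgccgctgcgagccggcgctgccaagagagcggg

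The SOX2 stretch held 1 CCAAT and 1 ACAAAG, the POU3F2 stretch held 2 CCAAT, and the NES stretch held neither. That of FABP7, which is not printed because it lies almost wholly inside the gene as GENCODE annotates it, held 3 CCAAT and 1 ACAAAG. Among 35116 such stretches of 27305 genes, 32.0% held CCAAT and 13.7% held ACAAAG on either strand. The octamer ATGCAAAT of POU proteins occurred in 1.63% of them and in none of these 4. The GC content was 68.8% for SOX2, 69.2% for POU3F2 and 58.0% for NES, the last equal to the median of 58.0% over all stretches. The motifs were chosen after the sequences were seen, and a match is a description of letters only. Stretches were matched for 6 of the 10 genes, including PROM1, FABP7 and ALDH1L1.

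**Figure D1:**
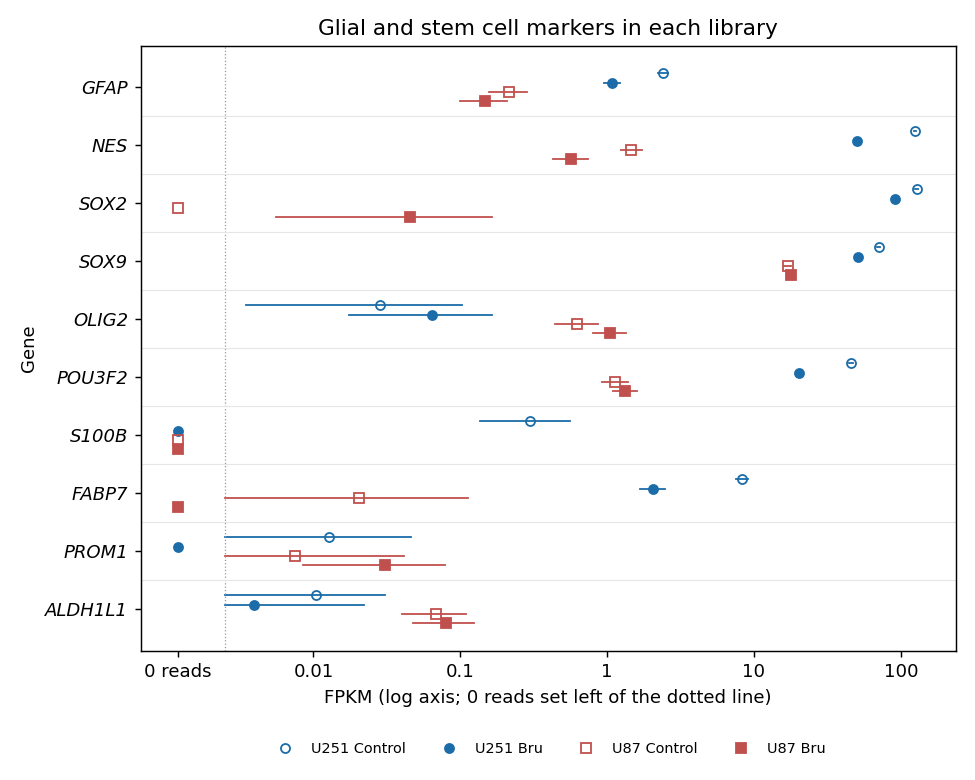
FPKM of the 10 markers on a log axis in U251 Control (open blue circles), U251 Bru (filled blue circles), U87 Control (open red squares) and U87 Bru (filled red squares), with lines for exact 95% counting intervals of each single library and libraries with 0 reads set left of the dotted line. NES, SOX2, SOX9 and POU3F2 lie at 20.2 to 129 FPKM in U251, whereas in U87 SOX9 alone of the 10 lies above 2 FPKM.

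Of the 2 filament proteins, NES (ENSG00000132688, chromosome 1, 156668763 to 156677397, minus strand) was measured in U251 at 125 FPKM in Control and 50.6 in Bru cells, and in U87 at 1.46 and 0.569. Both U251 libraries were higher than both U87 libraries, and in each line the Bru library was the lower one. Untreated U87 had 85.4-fold less NES than untreated U251 (log2 ratio of reads -6.42, interval -6.66 to -6.18). The Bru library was 2.47-fold lower in U251 (log2 -1.31, interval -1.35 to -1.26) and 2.57-fold lower in U87 (log2 -1.36, interval -1.84 to -0.91), the latter on 147 and 55 reads.

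GFAP (ENSG00000131095, chromosome 17, 44903161 to 44916937, minus strand), the filament of mature astrocytes, was low in both lines. Its FPKM was 2.42 in Control and 1.08 in Bru cells of U251, and 0.215 and 0.147 in those of U87. The U251 libraries again stood above the U87 libraries, and untreated U87 was 11.3-fold lower (log2 -3.49, interval -3.95 to -3.06). After Bru, GFAP was 2.23-fold lower in U251 (log2 -1.16, interval -1.38 to -0.94), whereas the difference in U87 (log2 -0.55, interval -1.25 to 0.14) was within counting error. The length used for GFAP, 12110 bases, joins all annotated exons, and per length of the longest coding transcript of 6538 bases, a setting chosen after seeing the data, its level in U251 Control was 4.48. CCDC103 and FAM187A overlap 18.4% of these exonic bases on the other strand, and both were listed at 0 in every library.

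SOX2 (ENSG00000181449, chromosome 3, 181711924 to 181714436, plus strand, 1 exon), a regulator of neural stem cell identity, was the highest of the markers in U251. It had 6790 reads or 129 FPKM in Control and 4248 reads or 91.2 FPKM in Bru cells of U251, against 0 and 2 reads in those of U87. Neither U87 library was above the floor. Against a floor of 3 reads in U87 Control, untreated U87 was at least 1950-fold lower than untreated U251. The exact interval allows log2 ratios up to -10.63, a smaller fold. The Bru library of U251 was 1.41-fold lower (log2 -0.50, interval -0.55 to -0.44), which is short of 2-fold. SOX2-OT, the long noncoding RNA that spans SOX2 on the same strand without sharing exon bases, had 1605 reads in Control and 758 in Bru cells of U251 and 3 in each U87 library.

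SOX9 (ENSG00000125398, chromosome 17, 72121020 to 72126420, plus strand, 3 exons), which drives gliogenesis and is kept in astrocytes, was the one marker with a sizeable level in both lines. Its FPKM in U251 was 70.8 in Control and 51.4 in Bru cells, and in U87 it was 16.9 and 18.0, so both U87 libraries lay below both U251 libraries. Untreated U87 was 4.18-fold lower (log2 -2.06, interval -2.15 to -1.97). The Bru library was 1.38-fold lower in U251 (log2 -0.46, interval -0.52 to -0.40) and within counting error of Control in U87 (log2 0.08, interval -0.03 to 0.20). SOX9-AS1, on the other strand, had 52, 59, 8 and 7 reads in the order U251 Control, U251 Bru, U87 Control and U87 Bru.

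POU3F2 (ENSG00000184486, chromosome 6, 98834592 to 98839470, plus strand, 1 exon), a POU factor of neural progenitors also named BRN2, was measured in U251 at 45.8 FPKM in Control and 20.2 in Bru cells, and in U87 at 1.13 and 1.33. Both U251 libraries were above both U87 libraries, and untreated U87 was 40.4-fold lower (log2 -5.34, interval -5.64 to -5.05). The Bru library was 2.27-fold lower in U251 (log2 -1.18, interval -1.26 to -1.10), whereas in U87 the 100 and 113 reads did not differ beyond counting error (log2 0.23, interval -0.17 to 0.63).

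OLIG2 (ENSG00000205927, chromosome 21, 33025845 to 33029196, plus strand, 1 exon), the basic helix-loop-helix factor of oligodendrocyte precursors, ran the other way. It had 2 reads in Control and 4 in Bru cells of U251, against 38 and 61 reads in those of U87, or 0.627 and 1.05 FPKM. Untreated U87 was 22.1-fold higher than untreated U251 (log2 4.46, interval 2.51 to 7.56), with the width set by the 2 reads in U251. The Bru library of U87 was 1.67-fold higher (log2 0.74, interval 0.13 to 1.36), and in U251 the interval of -1.62 to 4.65 included 0.

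FABP7 (ENSG00000164434, chromosome 6, 122779475 to 122784074, plus strand), the brain fatty acid-binding protein of radial glia, was measured at 8.27 FPKM or 473 reads in U251 Control and 2.04 FPKM or 103 reads in U251 Bru. U87 Control had 1 read and U87 Bru had 0. The Bru library of U251 was 4.06-fold lower (log2 -2.02, interval -2.34 to -1.71), the largest difference of the 10 markers in that line for which reads lay above the floor in both libraries. Untreated U87 was 408-fold lower than untreated U251 (log2 -8.67), with an interval of -13.98 to -6.19 because of the single read.

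The remaining markers were at or near the floor. S100B (ENSG00000160307, chromosome 21), a calcium-binding protein of astrocytes, had 9 reads in U251 Control and 0 in the other 3 libraries, which puts U251 Bru at least 2.65-fold and U87 Control at least 2.58-fold lower against 3 reads per library. That bound leaves out the counting error of the 9 reads, and the exact interval allows log2 ratios up to -0.80 and -0.77, short of 2-fold. PROM1 (ENSG00000007062, chromosome 4) had 2, 0, 1 and 4 reads in the order U251 Control, U251 Bru, U87 Control and U87 Bru. ALDH1L1 (ENSG00000144908, chromosome 3), a folate enzyme of astrocytes, had 3, 1, 17 and 19 reads in that order and was 6.58-fold higher in untreated U87 than in untreated U251 (log2 2.72, interval 0.93 to 5.13). In U87, ALDH1L1 after Bru did not differ beyond counting error (log2 0.21, interval -0.81 to 1.25).

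Detected markers numbered 7 in each U251 library, and in U87 they numbered 6 in Control and 7 in Bru cells. Of all protein-coding genes, 67.8% to 68.7% were detected in each library. The number detected thus barely separated the lines, but the genes detected differed. Among the Control libraries, SOX2, FABP7 and S100B were detected in U251 alone, and OLIG2 and ALDH1L1 in U87 alone. The summed FPKM of the 10 genes separated the lines, at 381 and 217 in Control and Bru cells of U251 and 20.5 and 21.2 in those of U87. Markers of at least 1 FPKM numbered 6 in each U251 library and 3 in each U87 library.

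The order of the levels also differed. In U251 Control it ran SOX2, NES, SOX9, POU3F2, FABP7, GFAP and S100B, and the intervals of SOX2 (126 to 132) and NES (123 to 127) overlapped. In U251 Bru, SOX9 moved ahead of NES, but their intervals overlapped as well (49.8 to 53.1 and 49.3 to 52.0). In U87 Control it ran SOX9, NES, POU3F2, OLIG2 and GFAP, with overlap between NES (1.24 to 1.72) and POU3F2 (0.923 to 1.38). In U87 Bru it ran SOX9, POU3F2, OLIG2, NES and GFAP, with overlap between POU3F2 (1.10 to 1.60) and OLIG2 (0.800 to 1.34). Per length of the longest coding transcript, ALDH1L1 (0.333) passed GFAP (0.272) in U87 Bru.

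**Figure D2:**
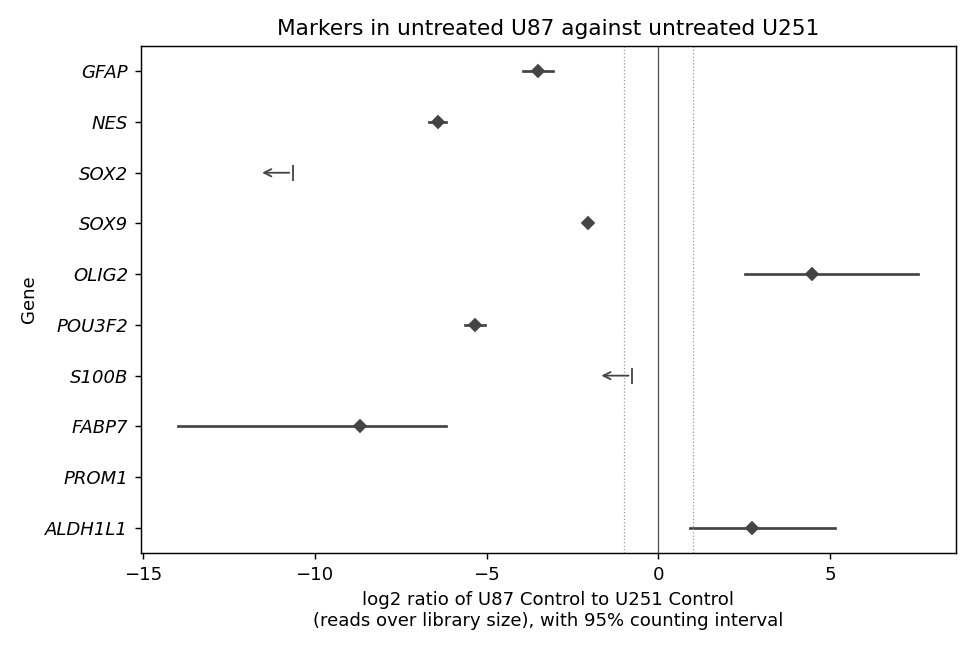
log2 ratio of U87 Control to U251 Control for each marker, from reads over library size, with 95% counting intervals as bars, upper limits as arrows where U87 Control had 0 reads, 1 library per line and dotted lines at 2-fold. SOX2, FABP7, NES, POU3F2, GFAP and SOX9 lie left of -1, whereas OLIG2 lies at 4.46 and ALDH1L1 at 2.72, and PROM1 has no point because both libraries were at or under 3 reads.

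To set the markers against all genes, a log2 ratio on FPKM + 0.1 was taken for the 12949 genes whose FPKM averaged 1 or more across all libraries, and genes past 2-fold were counted. NES, SOX2, SOX9, FABP7 and POU3F2 passed this filter, the mean of GFAP was 0.965, and those of the other 4 were at most 0.441. The 5 entered largely through U251, so the following counts support nothing on their own. In untreated U87 against untreated U251, 5 of the 5 were lower past 2-fold and 0 were higher, where 16% of all tested genes were lower and 14.5% higher.

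After Bru in U251, 3 of the 5 were lower past 2-fold, NES, FABP7 and POU3F2, and 0 were higher, where 5.44% of all tested genes were lower (705) and 3.36% higher (435). Scaling to the 75th percentile changed that split over all genes to 578 lower and 551 higher. The median log2 ratio of the 5 was -1.18, beside -0.03 over all genes tested. After Bru in U87, NES alone was lower past 2-fold and 0 were higher, where 1.41% of tested genes were lower and 1.92% higher. With the whole counting interval required beyond 2-fold, or with a pseudocount of 1, no marker was left in U87.

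**Figure D3:**
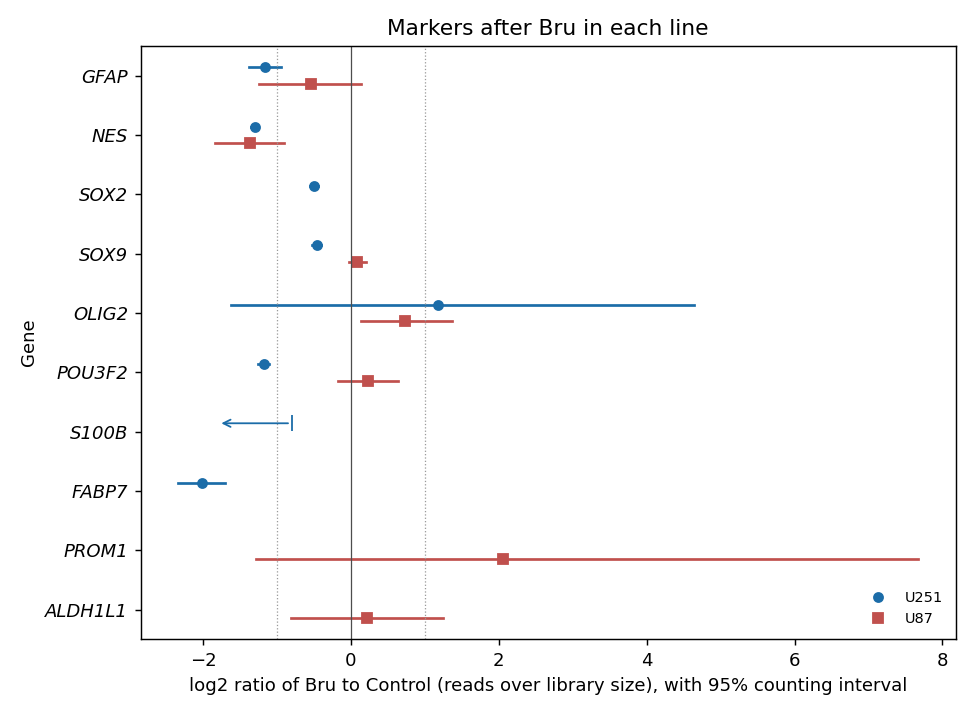
log2 ratio of Bru to Control for each marker in U251 (blue circles) and U87 (red squares), from reads over library size, with 95% counting intervals as bars, an upper limit as an arrow where the Bru library had 0 reads, 1 library per condition and dotted lines at 2-fold. NES lies left of -1 in both lines, whereas POU3F2 lies at -1.18 in U251 and 0.23 in U87, and genes at or under 3 reads in both libraries of a line have no point.

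The ratios in the 2 lines could be compared for 4 markers with enough reads. The log2 ratio in U87 minus that in U251 was 1.41 for POU3F2 (interval 1.02 to 1.81) and 0.55 for SOX9 (interval 0.42 to 0.68), both beyond counting error. For NES it was -0.06 (interval -0.51 to 0.39) and for GFAP 0.61 (interval -0.08 to 1.30), and neither could be told from 0 at this depth. SOX2 and FABP7 could not be compared, since U87 had at most 2 reads of either.

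Among the 19 SOX genes, 9 passed the filter, and 7 of these 9 were lower past 2-fold in untreated U87 and 0 higher, beside 16% and 14.5% of all tested genes. SOX2, SOX3, SOX13, SOX18 and SOX21 were below 1 FPKM in both U87 libraries and thus passed through U251 alone, so the filter fixed much of that count. SOX4, a progenitor factor, was measured in U251 at 41.1 FPKM in Control and 27.6 in Bru cells, and in U87 at 1.87 and 1.58. SOX21 and SOX3, relatives of SOX2 that were picked out after their values were seen, stood at 12.4 and 4.88 FPKM in U251 Control and had 0 reads in both U87 libraries. SOX18, an endothelial factor, had 78, 113, 7 and 0 reads in the order U251 Control, U251 Bru, U87 Control and U87 Bru. It was the 1 of 9 lower past 2-fold after Bru in U87 and 0 were higher, beside 1.41% and 1.92% of all tested genes. The exact interval of SOX18 in U87 allows log2 ratios up to -0.47, short of 2-fold. After Bru in U251, 0 of the 9 were lower and 0 higher past 2-fold, beside 5.44% and 3.36% of all tested genes. SOX1, SOX8, SOX11, SOX14 and SOX17 had 0 reads in all 4 libraries.

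**Figure D4:**
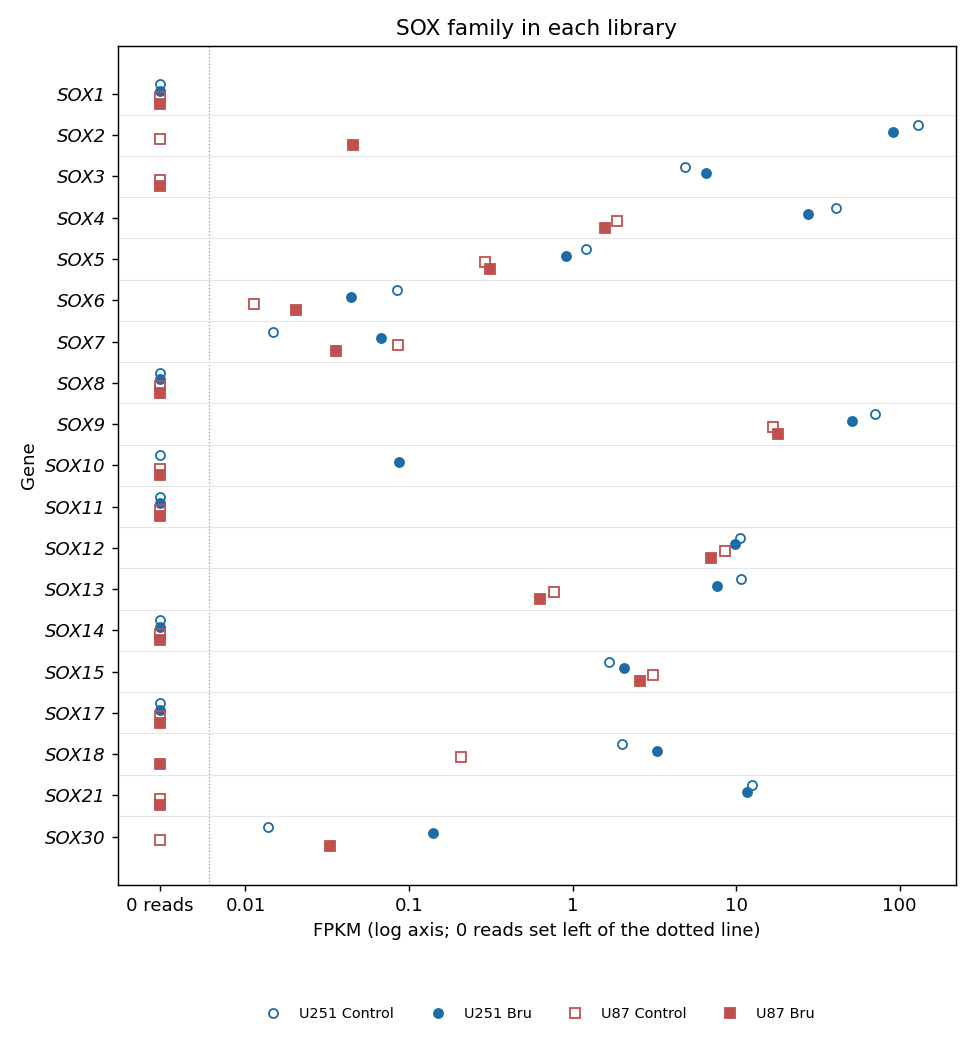
FPKM of the 19 SOX genes on a log axis in U251 Control (open blue circles), U251 Bru (filled blue circles), U87 Control (open red squares) and U87 Bru (filled red squares), 1 library each, with 0 reads set left of the dotted line. SOX2, SOX3 and SOX21 are near or above 5 FPKM in U251 and at or near 0 in U87, whereas SOX12 lies between 7.06 and 10.5 FPKM in all 4 libraries.

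Not every filament or stem cell marker separated the lines. VIM, the vimentin filament of mesenchymal and glial cells, was at 701, 606, 669 and 633 FPKM in U251 Control, U251 Bru, U87 Control and U87 Bru. Of 8 intermediate filament genes including VIM, 4 passed the filter. In untreated U87, 2 of these, SYNM and KRT18, were lower past 2-fold and 0 higher, beside 16% and 14.5% of all tested genes. Both passed the filter through U251 alone. After Bru, 0 of the 4 were past 2-fold in either line. Of all tested genes, 5.44% were lower and 3.36% higher in U251, and 1.41% and 1.92% in U87. SYNM, synemin, which pairs with vimentin and nestin, was at 17.2, 11.2, 0.219 and 0.220 FPKM, and KRT18, a keratin of simple epithelia, at 9.67, 14.3, 0.602 and 0.357, both in the same order. CD44, a hyaluronan receptor used as a mesenchymal glioma stem cell marker, was likewise present in all 4 libraries at 94.5 to 125 FPKM.

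Among 5 surface proteins of glioma stem cells that include CD44, 4 passed the filter, 1 was lower past 2-fold after Bru in U251 and 0 in U87, beside 5.44% and 1.41% of all tested genes. This was ITGA6, a laminin-binding integrin, at 21.4, 8.64, 5.17 and 3.83 FPKM in U251 Control, U251 Bru, U87 Control and U87 Bru. CD9, a tetraspanin, was at 43.6, 22.5, 43.9 and 26.5 FPKM in that order, and thus lower in the Bru library of both lines but short of 2-fold in each. In untreated U87, 2 of the 4, ITGA6 and L1CAM, were lower past 2-fold and 0 higher, where 16% of all tested genes were lower and 14.5% higher. L1CAM, named after its values were seen, passed the filter through U251 alone.

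Of 14 neural progenitor regulators, 6 passed the filter and 4 were lower past 2-fold in untreated U87, with 0 higher, beside 16% and 14.5% of all tested genes. SOX3, NR2E1 and ID4, which are 3 of these 4, passed through U251 alone. After Bru in U251, 1 was higher past 2-fold, where 3.36% of all tested genes were, namely ID4, an inhibitor of differentiation factors, at 3.89 FPKM in Control and 10.2 in Bru (log2 ratio of reads 1.39, interval 1.14 to 1.64). ID4 had 0 reads in U87. ID1, of the same family, was at 127, 164, 254 and 189 FPKM in U251 Control, U251 Bru, U87 Control and U87 Bru. BMI1, a Polycomb protein, was at 12.4 FPKM in U251 Control and 19.2 in U87 Control. The median log2 ratio of the 6 after Bru in U251 was 0.39, beside -0.03 over all genes tested, with 5 positive and 1 negative, SOX4.

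Of 16 astrocyte genes beyond GFAP, S100B and ALDH1L1, 5 passed the filter. In untreated U87, 1 of these was higher and 1 lower past 2-fold, near the 14.5% and 16% of all tested genes. CLU, clusterin, was at 11.4, 8.47, 71.3 and 57.4 FPKM in U251 Control, U251 Bru, U87 Control and U87 Bru, whereas FGFR3, a growth factor receptor of astrocytes and progenitors, was at 2.70, 1.26, 0.0114 and 0.0474 and passed the filter through U251 alone. GJA1, the gap junction protein connexin 43, was near 23.3 FPKM in both untreated lines, and GLUL, glutamine synthetase, was at 6.21 in U251 Control and 11.6 in U87 Control. After Bru, 1 of the 5, FGFR3, was lower past 2-fold in U251 and 0 in U87, beside 5.44% and 1.41% of all tested genes. The water channel AQP4 had at most 2 reads, and HEPACAM had 0 in all 4 libraries.

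Of 14 oligodendrocyte lineage genes, 4 passed the filter, and in untreated U87 1 was higher and 1 lower past 2-fold, where 14.5% and 16% of all tested genes were. CSPG4 (NG2), the proteoglycan of oligodendrocyte precursors and pericytes, was at 0.138, 0.111, 40.1 and 29.2 FPKM in U251 Control, U251 Bru, U87 Control and U87 Bru, the same order of lines as OLIG2. PDGFRA, the platelet-derived growth factor receptor of these precursors, was at 3.48, 1.38, 0.125 and 0.0885. CSPG4 passed the filter through U87 alone and PDGFRA through U251 alone. After Bru, PDGFRA and UGT8, an enzyme of myelin lipid synthesis, were the 2 of 4 lower past 2-fold in U251, and 0 were in U87, where 5.44% and 1.41% of all tested genes were lower. UGT8 was at 5.72, 2.01, 9.98 and 5.92 FPKM in the same order, and CNP, a myelin-associated enzyme, at 26.0, 18.9, 18.2 and 17.4. SOX10 and OLIG1, 2 defining factors of the lineage, had at most 6 reads in any library.

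Relatives of the markers were examined by their levels alone, and whether reads of one gene were counted for another was not tested. Of 10 paralogs, 3 passed the filter, and 2 of these, FABP5 and ALDH1A3, were higher past 2-fold in untreated U87, with 0 lower, beside 14.5% and 16% of all tested genes. FABP5 passed through U87 alone. FABP5, the epidermal fatty acid-binding protein, had 0 reads in both U251 libraries and 13.9 and 12.2 FPKM in U87 Control and U87 Bru. Against 3 reads in U251 Control, it was at least 202-fold higher in untreated U87. The exact interval allows log2 ratios down to 7.35, a smaller fold. FABP3, the heart form, was at 1.39, 0.578, 2.48 and 1.40 FPKM in U251 Control, U251 Bru, U87 Control and U87 Bru. It was the 1 of 3 lower past 2-fold in U251 after Bru, with 0 in U87, beside 5.44% and 1.41% of all tested genes. The U251 ratio rested on 30 and 11 reads (log2 ratio of reads -1.27, interval -2.41 to -0.23). In U87 the Bru library was lower too (-0.83, interval -1.59 to -0.09), and the lines did not differ beyond counting error (0.44, interval -0.78 to 1.66). ALDH1A3, an aldehyde dehydrogenase of mesenchymal glioma cells, was at 12.0, 8.65, 30.8 and 24.8 FPKM in U251 Control, U251 Bru, U87 Control and U87 Bru. POU3F1, POU3F3 and POU3F4 had at most 5 reads in any library, compared with 4686 for POU3F2 in U251 Control.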

How the data were processed

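RNA of U251 and U87 cells, Control or after 48 h of Bru, was sequenced as 4 libraries, 1 per condition. Per the labels, libraries were made with a NEB kit from total RNA and read in pairs on an Illumina platform. The submitters' processing notes name HISAT2 2.0.5, StringTie 1.3.3b, featureCounts 1.5.0-p3 and DESeq2 1.16.1, without roles, and the build hg18. The deposited gene coordinates, however, were those of GENCODE release 29 (GRCh38) for all 58735 genes, so GRCh38 was used.

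The authors deposited FPKM per gene with the gene length used. FPKM times length was a whole multiple of 1 step for 100% of values above 0 (tolerance 0.1 reads), which gave the reads and a scaling size per library of 17406238 to 20974002. Reads on genes exceeded this size in both Control libraries, so it is the authors' scaling denominator and not a count of all fragments. Whether counting used strand is not given in the sources used here.

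Ratios were taken on log2(FPKM + 0.1), which understates changes of low genes, over 12949 genes whose FPKM averaged 1 or more, and called past an absolute log2 ratio of 1. Ratios of reads have exact Clopper-Pearson 95% intervals. Differences of log2 ratios between the lines have 95% intervals from a normal approximation of the counting error. The floor was 3 reads. No p-value was computed, since each condition has 1 library. Promoter sequences are from RefSeq.

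The markers and lists were chosen with earlier results of these data known. From each other list, the 3 genes with the highest mean FPKM and up to 4 past 2-fold after Bru in either line that passed this filter were named, and others are marked or were given for low or absent levels. Alternatives were pseudocounts of 1 and 0.01, TPM, median, 75th percentile and mitochondria-free scaling, other filters, protein-coding genes only and intervals beyond 2-fold. Scripts were tested on simulated data. Python 3.11.15, pandas 2.3.3 and scipy 1.17.1 were used.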

Additional observations from a re-analysis of the deposited data

Results flagged for a closer look

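For SOX9, the Bru library was below Control in U251 and above it in U87, the latter within counting error (log2 ratio of reads 0.08, interval -0.03 to 0.20). The difference of the log2 ratios on FPKM + 0.1, U87 minus U251, was 0.545.

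For POU3F2, the Bru library was likewise below Control in U251 and above it in U87, the latter again within counting error (log2 ratio of reads 0.23, interval -0.17 to 0.63), and the difference of the log2 ratios was 1.39. It lay between 1.27 and 1.41 under the other pseudocounts and scalings. Both genes are listed because the values of the single Bru library lay below Control in one line and above it in the other. The difference between the lines was not tested against replicates, since there were none.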

How the results depend on the processing

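No paired analysis was possible because each condition is 1 library, and leaving out a library leaves no comparison. The direction of every marker ratio given above held under each pseudocount and scaling tried, but a pseudocount cannot change a direction. The sizes did move. Scaling to the 75th percentile put the U251 Bru ratios of SOX9 (-0.37), SOX2 (-0.41), NES (-1.22) and POU3F2 (-1.09) outside their counting intervals. On FPKM + 0.1, the difference of NES between the lines was 0.08, beside -0.06 from reads. It was -0.04 with a pseudocount of 0.01 and -0.05 with TPM, all within its counting interval. With a pseudocount of 1 it was 0.64, above the upper limit of 0.39. A limit of 1 FPKM in place of more than 3 reads gave 3 markers detected in either U87 library, Control (3) or Bru (3).

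The other counts past 2-fold that moved by over 1.5 times are given as higher and lower over all genes. After Bru in U251 (435 and 705) they were 197 and 419 with a pseudocount of 1, 2424 and 2539 without a filter, 1782 and 1945 with a filter at 0.1 FPKM, 150 and 323 with one at 5 FPKM, and 158 and 343 with the whole interval beyond 2-fold. With protein-coding genes only, 223 were higher. With no filter, 5 markers were lower. After Bru in U87 (249 and 183) they were 113 and 77 with a pseudocount of 1, 2531 and 1804 with no filter, 1627 and 1174 with a filter at 0.1, 38 and 45 with one at 5, 32 and 64 with protein-coding genes only, and 26 and 30 with the whole interval beyond 2-fold. The marker lower in U87, NES, was replaced by 0 with a pseudocount of 1 or the whole interval. A pseudocount of 0.01 gave 2 lower and 1 higher, and TPM gave 1 higher, the added ones resting on at most 2 reads of FABP7 and SOX2. For untreated U87 against U251 (1873 and 2069) they were 5283 and 5257 with no filter, 4400 and 4445 with a filter at 0.1, and 855 and 866 with one at 5, and OLIG2 was the 1 marker higher with no filter or one at 0.1. Apart from the filters, which change the genes tested, the causes were not tested.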

Other observations

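Neuronal genes were measured as well. Of 12, 5 passed the filter, and 2 of these, NEFL and MAP2, were lower past 2-fold in untreated U87, with 0 higher, beside 16% and 14.5% of all tested genes. NEFL passed the filter through U251 alone. NEFL, the light neurofilament, was at 80.5 FPKM in U251 Control and 72.0 in U251 Bru and had 0 reads in both U87 libraries. Against 3 reads in U87 Control, it was at least 2100-fold lower in untreated U87. The exact interval allows log2 ratios up to -10.74, a smaller fold. MAP2, a microtubule protein of dendrites, was at 12.5, 5.19, 2.36 and 1.33 FPKM in U251 Control, U251 Bru, U87 Control and U87 Bru, and was the 1 of 5 lower past 2-fold after Bru in U251, with 0 in U87, beside 5.44% and 1.41% of all tested genes. ENO2, an enolase of neurons that many tumors also express, was at 26.9 to 47.8 FPKM in all 4 libraries. DCX, a protein of migrating neuroblasts, had at most 1 read.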
